A study of Drosophila melanogaster with 12 samples.

Results

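The heights of ATAC-Seq peaks that both strains share were compared between eworo and OreR, peak by peak, in second (T2) pupal legs of *Drosophila melanogaster*. A peak of one strain was paired with a peak of the other where their summits, the base with the highest signal, were each other's nearest within 100 bp on the same chromosome. This gave 32965 pairs, and the 32890 pairs on chromosomes 2L, 2R, 3L, 3R, 4 and X are described here. They hold 74.1% of the 44398 peaks of eworo and 78.3% of the 42015 peaks of OreR. Another 11433 peaks of eworo and 9050 of OreR had no partner, and 75 pairs lay on other sequences, 8 of them on Y.

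Flies of the eworo strain carry *ebony*[4], *white ocelli*[1] and *rough*[1] and have a large naked valley, the trichome-free patch on the femur of the second leg. Oregon R (OreR) is a wild-type strain with a small naked valley. The pupae of both strains were 20 to 28 h old after puparium formation and were reared at 25 °C. Each ATAC-Seq replicate held legs of about 80 pupae and about 60000 nuclei, and libraries were amplified for 15 PCR cycles. There were 3 replicates per strain, but the deposited lists hold 1 pooled set of peaks per strain, so no peak height has a replicate error and no test was made on it. The strains differ across their whole genomes, so a difference between them cannot be told apart from a difference of genetic background. RNA-Seq of the same tissue, with 3 libraries per strain, is the only readout here with replicates.

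ATAC-Seq uses a transposase that inserts adapters into DNA not wrapped in nucleosomes, so that peaks mark promoters, enhancers and other open chromatin. Leg trichomes are actin-based protrusions of epidermal cells, and the transcription factor Shavenbaby (Svb), encoded by *ovo*, drives the genes that build them. The Hox protein Ubx and the microRNA miR-92a repress trichomes in the naked valley, and miR-92a acts through *shavenoid* (*sha*), an Svb target that organises the actin of the protrusion.

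The legs expressed the genes that define leg epidermis. *Dll*, which patterns the distal leg, had 71.6, 121 and 87.5 FPKM (fragments scaled to transcript length and library size) in the eworo libraries against 119, 81.8 and 137 FPKM in those of OreR. *kkv*, the gene of a chitin synthase, showed 59.2, 70.9 and 60.1 FPKM in the eworo libraries against 84.5, 80.7 and 93.2 FPKM in those of OreR. The values of both strains overlapped for *Dll* and not for *kkv*, which did not pass the test (limma on log2(FPKM + 1), adjusted p = 0.157). RNA differences below are on this scale, which understates the change of low genes. In whole legs, fewer cells of a type and less open chromatin or RNA per cell cannot be told apart.

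The lists rest on 53862732 tags kept in eworo and 56972082 in OreR, out of 170109980 and 193178857. Height is the pileup, the number of tags over the summit after each was extended to 50 bp. The peak caller kept 1 tag per position and strand, so that a pileup cannot pass 100. Pileup in the lists ran from 39 to 100 tags in eworo and from 41 to 100 in OreR, and the median of the pairs was 63 tags in both. Each log2(eworo pileup / OreR pileup) was centred on the median of its chromosome, and a pair was counted as shifted where this centred value passed 1.5-fold. A second measure, the fold enrichment, divides pileup by the local background of tags and was centred alike. It uses the same tags and is not independent. Since the values on which pairs were ranked are the same ones given for the ranked pairs, these are descriptions.

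Heights of the paired peaks were close between the strains. Only peaks called in both lists form a pair, and pileup runs from the call floor to 100 tags, which bounds the ratio. The 11433 peaks of eworo and 9050 of OreR without a partner are not covered. The centred log2 pileup ratio had an SD of 0.11 over all pairs, and its 5th and 95th percentiles were -0.19 and 0.18, which is 1.14-fold lower and 1.13-fold higher in eworo. Independent tags at these heights would give an SD of 0.26 from counting alone, so the pileups spread less than Poisson counts. Summits were a median of 14 bp apart and identical in 1881 pairs. Only 7 pairs (0.0213% of the 32890) were at least 1.5-fold higher in eworo and 5 (0.0152%) at least 1.5-fold lower, and none passed 2-fold. In the fold enrichment too, 5 of the 7 and 4 of the 5 passed 1.5-fold. The median local background of both groups was the genome-wide value of the peak caller, 22.44 tags in eworo and 23.74 in OreR. Where both strains sit at this value, fold enrichment only restates the pileup. The last pairs inside the 1.5-fold limit had centred log2 ratios of 0.59 and -0.59, and the first outside had 0.57 and -0.57. With pileups turned into the tags expected if positions fill at random, which stretches ratios near the ceiling, 134 pairs passed 1.5-fold higher and 104 lower. Requiring a -log10 q of at least 5 in both lists left 1 pair in each direction, but this filter acts on the lower peak of a pair and so removes shifted pairs by its construction.

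**Figure D1:**
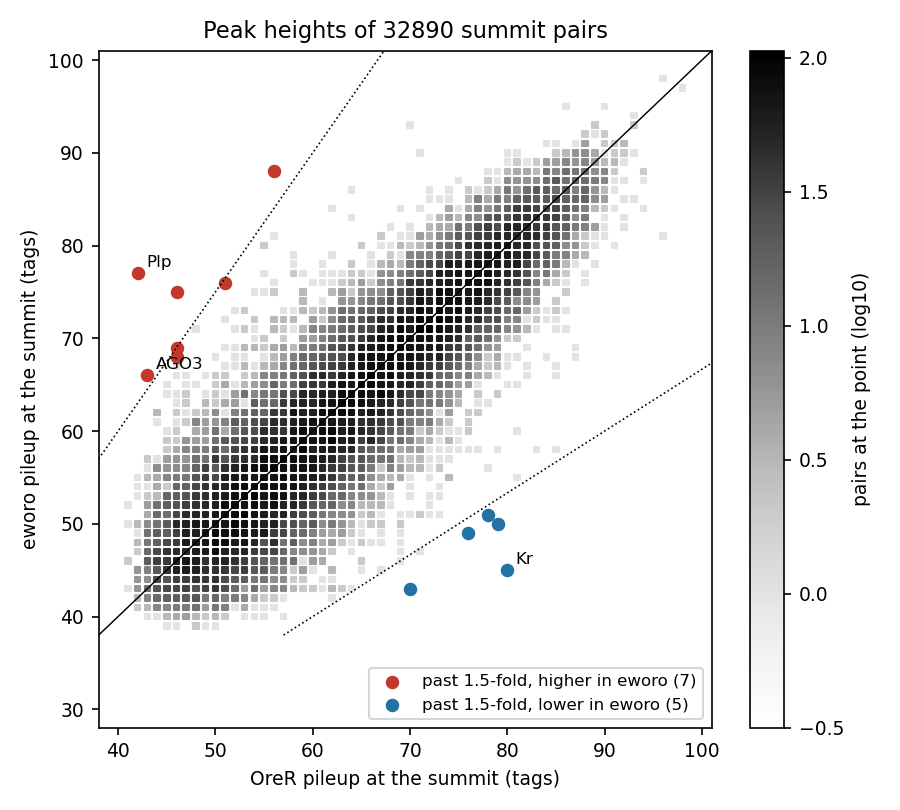
Pileup at the summit in OreR (x axis, tags) and eworo (y axis, tags) for the 32890 pairs, with grey squares shaded by the log10 of the number of pairs at a point, a solid line of equal pileup and dotted lines at an uncentred 1.5-fold difference. The 7 pairs in red and the 5 in blue passed 1.5-fold after centring, and the pairs with the largest differences lie at *Plp* (42 tags in OreR, 77 in eworo) and *Kr* (80 and 45 tags).

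With a limit of 1.2-fold, chosen after the values had been seen, 436 pairs (1.33%) were higher in eworo and 604 (1.84%) lower. Of these, 307 (0.933%) and 420 (1.28%) passed 1.2-fold in both measures. The median local background of the higher and of the lower pairs was again 22.44 tags in eworo and 23.74 in OreR. Pairs past 1.2-fold were few among high peaks. Under a mean pileup of 50 tags, 54 of 4212 pairs (1.28%) were higher and 178 (4.23%) lower, and from 50 to 60 tags 240 of 9969 (2.41%) were higher and 311 (3.12%) lower. Over 80 tags 2 of 2192 were higher and 0 lower. The share of lower pairs was thus greatest in the lowest peaks and that of higher pairs at 50 to 60 tags. The lowest pileup called was 39 tags in eworo and 41 in OreR, so eworo values could lie lower there. Whether this call floor sets the shares was not tested. The SD of the centred ratio fell with height, from 0.13 under 50 tags to 0.06 over 80 tags, where the ceiling of 100 leaves less room. Pairs past 1.2-fold also lay farther from the ends of genes. The median distance from the summit to the nearest end of a gene was 1973.5 bp for pairs past 1.2-fold higher, 1155.5 bp for those lower and 836 bp for all pairs. Within 500 bp of a gene end lay 31.9% and 35.4% of these pairs and 42.4% of all. Distances were not compared at like peak heights, so whether height accounts for this was not tested. The 5 pairs past 1.5-fold lower went the other way, with a median of 75 bp and 4 of 5 within 500 bp, while the 7 higher had a median of 2199 bp.

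Chromosome X stood apart before centring. The median log2(eworo pileup / OreR pileup) was 0.02 on X and -0.02 on each of 2L, 2R, 3L and 3R, and eworo was higher in 56.0% of pairs on X but in 35.7% to 38.5% on these arms. The fourth chromosome, with 235 pairs, had the lowest median of the 6 (-0.04), with eworo higher in 31.1% of pairs. The median log2 ratio of the uncentred fold enrichment was 0.05 on X, beside 0.05 on the fourth chromosome and 0.06 to 0.07 on the large autosomal arms. The genome-wide background of the peak caller was 22.44 tags in eworo and 23.74 tags in OreR. After centring, X had 1.85% of its pairs past 1.2-fold higher and 2.11% lower, and the fourth chromosome had 2.13% and 4.68%.

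**Figure D2:**
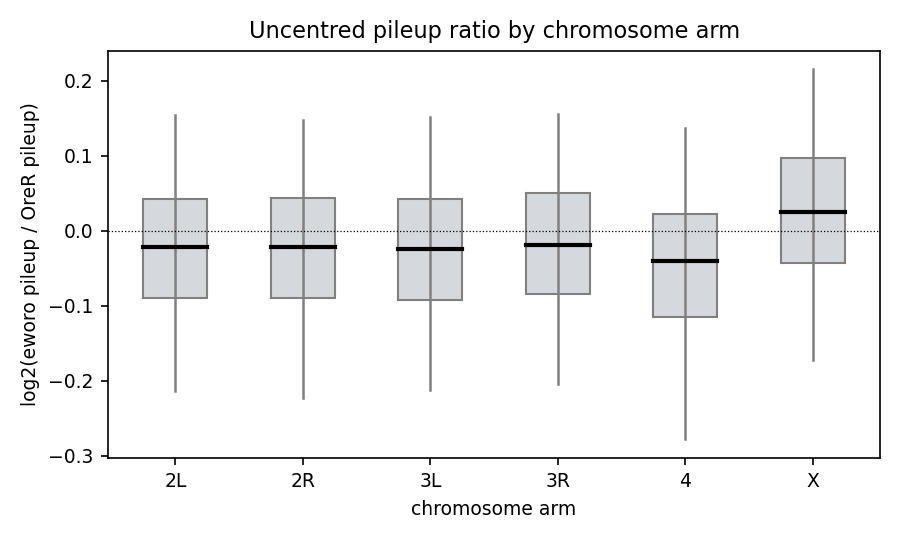
Uncentred log2(eworo pileup / OreR pileup) of the pairs on each chromosome arm (x axis). Lines run from the 5th to the 95th percentile, boxes from the 25th to the 75th and thick bars mark the medians. The median is 0.02 on X, -0.04 on 4 and -0.02 on the other arms.

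The pair with the greatest fall in eworo lay by *Kr*, the gap gene that encodes the zinc finger protein Krüppel. Its summit (2R, position 25226525 of the Release 6 genome) lies within *CG9380* and 86 bp from the end of *Kr*. The pileup was 45 tags in eworo and 80 tags in OreR, a centred log2 ratio of -0.81 (95% Clopper-Pearson interval -1.37 to -0.26), and the fold enrichment gave -0.80. Intervals given here cover counting error only, and since tags at 1 position were kept once they are approximate. Over all pairs the ratio spread less than such counting gives (SD 0.11 against 0.26), so the intervals are wide for that spread. They also make no allowance for the choice of the most extreme pairs. The peak was 90 bp long in eworo and 298 bp in OreR, and no other pair lay within 5 kb. *Kr* was at most 0.03 FPKM in every RNA-Seq library, and *CG9380* was listed at 0 in 3 of them, with 3.83, 0 and 0 FPKM in the eworo libraries against 2.52, 2.68 and 0 FPKM in those of OreR.

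The other 4 pairs past 1.5-fold lower were single peaks too. At *Trhn*, which encodes the neuronal tryptophan hydroxylase of serotonin synthesis, the pair at 1191763 on 3L had 43 and 70 tags in eworo and OreR (centred log2 ratio -0.68, interval -1.26 to -0.11). At 16852430 on 2L, 62 bp from *CG31810*, the pileup was 50 and 79 tags (-0.64, interval -1.18 to -0.11). At 20698448 on 2R, 35 bp outside *dpr1*, which encodes an immunoglobulin protein of neurons, it was 49 and 76 tags (-0.61, interval -1.16 to -0.07). The 4 pairs inside *dpr1* did not follow, with centred log2 ratios of 0.12, -0.04, 0.13 and 0.38. At 27677174 on 3R, 75 bp from *unc80*, which encodes a part of a neuronal sodium leak channel complex, the pileup was 51 and 78 tags (-0.59), and the fold enrichment ratio was -0.48. The pairs by *Kr*, *CG31810*, *dpr1* and *unc80* were within 500 bp of a gene end. No other pair within 5 kb of these 5 peaks passed 1.2-fold.

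The pair with the greatest rise lay in *Plp*, which encodes a pericentrin-like protein of the centrosome. At 15070382 on 3L, with the same summit in both strains, the pileup was 77 tags in eworo and 42 tags in OreR. The centred log2 ratio was 0.90 (interval 0.34 to 1.48) and that of the fold enrichment 0.88. The peak spanned 666 bp in eworo and 55 bp in OreR. The locus of *Plp*, *Or71a* and *sstn* held 9 pairs, 7 of them above 0, with a median of 0.16 and a range of -0.04 to 0.90.

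Of the other 6 pairs past 1.5-fold higher, 4 lay outside gene loci. At 12915845 on 3L, 2199 bp from *CG32115*, the pileup was 75 tags in eworo and 46 in OreR (0.73, interval 0.18 to 1.29), and both other pairs within 5 kb were also above 0 (0.14 and 0.26). At 23689964 on 3L, 324 bp from *AGO3*, a Piwi-family gene of the piRNA pathway, it was 66 and 43 tags (0.64, interval 0.07 to 1.23). The 3 other pairs within 5 kb had 0.14, 0.19 and 0.45, all in the direction of the leading one. At 14074587 on X, 3865 bp from *tRNA:Ser-AGA-1-1*, the pileup was 88 and 56 tags (0.63, interval 0.13 to 1.14), while the 3 neighbours lay between -0.07 and -0.02. At 7915442 on 3L, 5 bp outside *lncRNA:CR32368*, it was 69 and 46 tags (0.61, interval 0.05 to 1.18), with 7 neighbours between -0.13 and 0.08. The other pairs lay in *CG9664* (3293873 on 2L, 76 and 51 tags, 0.60) and in *nAChRalpha5*, which encodes a nicotinic acetylcholine receptor subunit (14072089 on 2L, 68 and 46 tags, 0.59). Both were just inside the limit in pileup and just outside it in fold enrichment (0.58 and 0.57).

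To find genes with several shifted peaks, each pair was given to the locus in the authors' Cuffdiff gene table that held both summits. The 16844 named entries of this table fall in 11671 distinct loci, since overlapping genes share 1 locus, and 3252 loci hold more than 1 gene. A locus held 22434 of the pairs (68.2%), and 6072 loci held at least 1 pair. Only 6 loci held a pair past 1.5-fold and none held more than 1. The 6 are those of *Kr* and *CG9380*, *Trhn*, *CG31810*, *nAChRalpha5*, *CG9664* and *Plp*. Genes with more than 1 shifted pair are therefore given with the 1.2-fold limit. Among the 2372 loci with at least 3 pairs, 31 had at least 2 pairs past 1.2-fold higher and 35 had at least 2 lower, and the 5th and 95th percentiles of the locus medians were -0.11 and 0.09.

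The locus with the most higher pairs lay near the distal tip of X, from 268509 to 470726, which holds 20 genes, among them the pigmentation gene *yellow* (*y*) and the proneural genes *achaete* (*ac*), *scute* (*sc*), *l(1)sc* and *asense* (*ase*). Of its 46 pairs 7 passed 1.2-fold higher and 1 lower, 38 were above 0, and the centred log2 ratios ran from -0.29 to 0.36 with a median of 0.09. The fold enrichment gave a median of 0.11. Most of these pairs lay in *CG32816*, with 39 pairs, 6 higher and 1 lower. The only pairs inside the short spans of *ac* (0.06) and *sc* (0.00) were not shifted. In RNA *ac* had 8.76, 8.39 and 12.2 FPKM in the eworo libraries against 9.18, 7.99 and 9.52 FPKM in those of OreR (limma, adjusted p = 0.722), and *sc* had 15.2, 16.2 and 17.3 and 14.8, 16.3 and 15.1 FPKM (adjusted p = 0.687). The RNA of both genes overlapped between the strains, and *y* was under 1 FPKM in all 6 libraries.

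The loci that followed by number had 2 higher pairs each. First among them by the sum of centred ratios were those of *sdk*, *hth*, *Ptp61F*, *Tet* and *bi*. They held 22, 52, 42, 42 and 67 pairs, and the locus of *bi* also had 1 lower pair. Over all pairs 1.33% were higher, and an order by count and sum favours loci with many pairs. The pileup medians of these loci were 0.09, 0.05, 0.03, 0.05 and 0.03. The medians of fold enrichment were -0.01, -0.02, 0.02, -0.04 and -0.01, and those of the centred local background ratio 0.18, 0.04, 0.01, 0.06 and 0.07. Smaller loci had fewer pairs and higher medians. In *unc-13* on chromosome 4, which encodes a priming factor of synaptic vesicles, the 3 pairs had pileups of 57, 71 and 67 tags in eworo and 51, 60 and 51 tags in OreR (median 0.28). In *CG14669* the 3 pairs had 63, 54 and 69 tags and 61, 43 and 58 tags (median 0.27). In *Dh31-R*, which encodes the receptor of the diuretic hormone DH31, 4 of 5 pairs were above 0, with 56 against 44 tags at the highest (0.37) and a median of 0.23. The spalt-related gene *salr*, a zinc finger factor of appendage patterning, had 57, 52 and 53 tags in eworo and 49, 44 and 49 tags in OreR (median 0.24). In *unc-13*, *CG14669* and *salr* every pair was higher in eworo, and no interval of a single pair excluded 0. The RNA of *unc-13*, *Dh31-R* and *salr* did not pass the test (limma, adjusted p = 0.501, 0.337 and 0.657).

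The loci with the most lower pairs, at 4 each, stood on 2R. In the locus of *Adk3* and *Gadd45*, a stress-response gene, from 7241249 to 7251319, all 6 pairs were below 0 and 4 passed 1.2-fold lower, with a median of -0.30. Their pileups were 48, 66, 81, 69, 66 and 76 tags in eworo and 60, 85, 96, 87, 82 and 82 tags in OreR. In *l(2)41Ab* 4 of 8 pairs passed 1.2-fold lower, with a median of -0.24, and in the locus of *rolled* (*rl*), which encodes the MAP kinase ERK, 3 of 4 passed, with a median of -0.29. In fold enrichment none of the 3 loci was low, with medians of 0.21, 0.02 and -0.06. On X the large locus of *mamo*, a zinc finger gene of the germ line, had 3 of 48 pairs past 1.2-fold lower, and 35 of its 48 pairs were below 0 (median -0.05, fold enrichment -0.04). The loci of *bbg* (3L), *RhoU* (X), *bun* (2L) and *CG17839* (3L) also had 3 lower pairs each. Their medians lay within 0.01 of 0, and all but that of *bbg* held higher pairs too. *DIP-lambda*, which encodes an immunoglobulin protein and lies near the centromere of 2R, had 2 pairs, with 51 and 43 tags in eworo against 66 and 63 tags in OreR (-0.35 and -0.53), and here the fold enrichment fell alike (median -0.44).

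Fold enrichment is pileup over local background, so the local background of each pair was computed from these deposited values. Its centred log2 ratio passed 1.2-fold higher in eworo in 13 pairs (0.0395%) and lower in 37 pairs (0.112%), which fall in 6 and 12 regions. The regions with at least 3 such pairs hold 29 of the 37 lower ones. The background is counted over up to 10000 bp, so that neighbouring pairs share it.

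The highest of these regions in eworo lay at *Men*, which encodes malic enzyme, and *PolQ*, which encodes DNA polymerase theta, on 3R from 12712113 to 12717126. Over its 5 pairs the local background was 33.5 to 35.1 tags in eworo and 23.7 to 29.7 tags in OreR, a median difference of 1.52-fold, and these ranges do not overlap. The pileups were 65, 85, 75, 61 and 71 tags in eworo and 50, 77, 55, 59 and 64 tags in OreR, all higher in eworo (centred median 0.17). The fold enrichment went the other way and was lower in eworo in all 5 pairs (centred median -0.21). *Men* had 55.9, 51.5 and 49.0 FPKM in the eworo libraries against 42.0, 41.8 and 43.0 FPKM in those of OreR, which do not overlap, but the log2 difference of 0.30 (SE 0.07) did not pass the test (limma, adjusted p = 0.126). *PolQ* had 4.98, 6.85 and 4.33 against 3.19, 2.87 and 3.77 FPKM, with a log2 difference of 0.57 (adjusted p = 0.263).

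Of the lower regions with at least 3 pairs, that of *Adk3* and *Gadd45* had the lowest median (-0.47). Its local background was 22.4 to 38.4 tags in eworo and 35.4 to 53.4 tags in OreR, 1.39-fold lower in eworo by the median, and these ranges overlap. *Adk3*, listed under its older symbol *Ady43A* in the RNA files, had 25.1, 26.4 and 25.9 FPKM in the eworo libraries against 72.5, 99.4 and 66.4 FPKM in those of OreR. Its RNA fell by 1.56 on the log2(FPKM + 1) scale (SE 0.16, limma, adjusted p = 0.012), lower in all 3 eworo libraries than in any of OreR. The call was lost without eworo replicate 1 (adjusted p = 0.0619) or 3 (0.0625). *Gadd45* had 19.5, 27.1 and 26.0 FPKM in the eworo libraries against 62.5 and 125 FPKM in replicates 1 and 2 of OreR. In OreR replicate 3 it is listed only within an entry of 3 genes (114 FPKM), so it was not tested. Pileup, local background and *Adk3* RNA were lower in eworo at this locus, and fold enrichment was higher (median 0.21).

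At *CG10444* and *CG11788* on 2R, from 20274244 to 20278898, the background of 4 pairs was 22.8 to 24.6 tags in eworo and 29.7 to 36.4 tags in OreR, and the pileups were 58, 78, 53 and 62 against 68, 89, 63 and 59 tags. In RNA *CG10444* was called and *CG11788* was not. *CG10444* had 4.94, 4.45 and 4.67 FPKM in eworo and was listed at 0 in all 3 OreR libraries (limma, adjusted p = 0.00141), and *CG11788* had 6.25, 5.68 and 5.12 FPKM against 11.5, 9.11 and 10.8 FPKM (log2 difference -0.77, adjusted p = 0.0532, which misses the threshold of 0.05). A value of exactly 0 in these files can be a failed estimate. In the region of *mod(mdg4)* on 3R, which encodes proteins of chromatin insulators, the background of 3 pairs was 22.4 tags in eworo and 30.1 to 30.3 in OreR, while the pileups of 52, 77 and 70 tags in eworo hardly differed from 57, 78 and 69 tags in OreR. A higher background in OreR was thus not always joined by a higher peak.

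**Figure D3:**
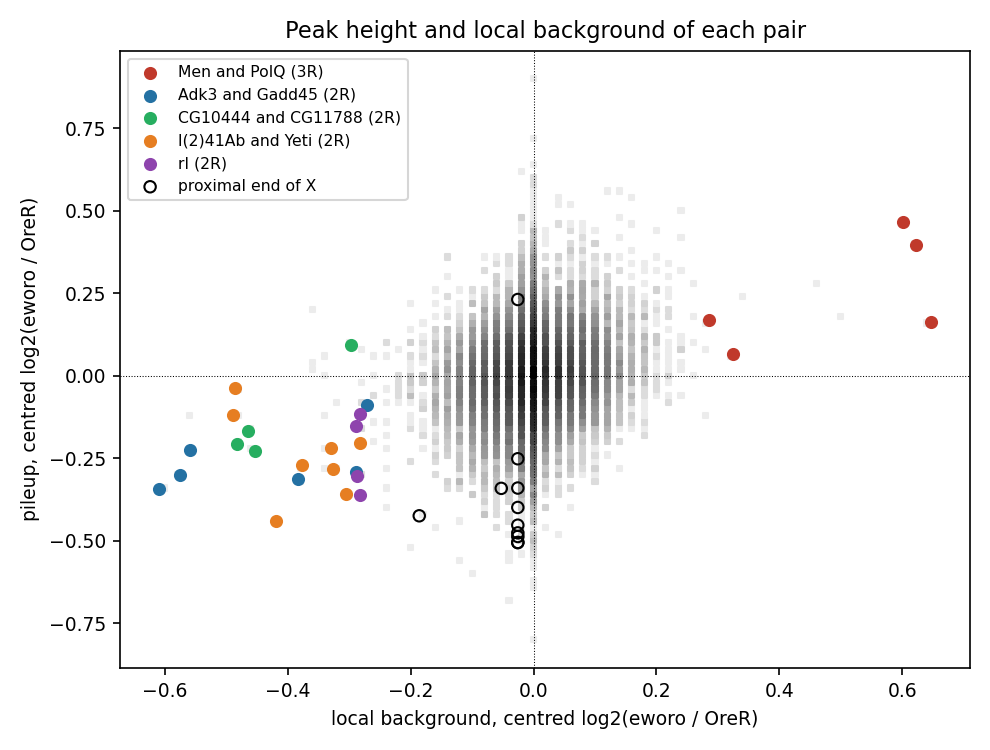
Centred log2(eworo / OreR) of the local background (x axis) and of the pileup (y axis) for each pair, in grey squares shaded by the number of pairs, with the pairs of 5 regions coloured and those of the proximal end of X as open circles. The *Men* and *PolQ* pairs lie to the right (median 0.60 in background, 0.17 in pileup) and the *Adk3* and *Gadd45* pairs to the left and below (-0.47 and -0.30). Of the 11 pairs of the end of X 10 lie below 0, and the lowest background ratio among the 11 is -0.19, in 1 pair.

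The ends of 2 chromosome arms next to the centromere held runs of lower pairs. On 2R all 26 pairs from 326702 to 1378615, which include *DIP-lambda*, *rl* and *l(2)41Ab*, had a median of -0.21, with 24 below 0 and 11 past 1.2-fold lower. Over all 26 the median was -0.01 in fold enrichment (13 of 26 above 0) and -0.28 in local background, but the run was mixed. The background was lower in eworo at 1000056 to 1000515, 1071385 to 1072953 and 1345181 to 1368605 (medians -0.33, -0.28 and -0.35). The fold enrichment medians there were 0.13, 0.04 and 0.08. In the other pairs the background ratio was no lower than -0.09, and fold enrichment ran from -0.53 to 0.07. On X the 11 pairs from 23327732 to 23430073 had a median of -0.42, with 10 below 0 and 9 past 1.2-fold lower. There the fold enrichment was low too (median -0.34), and the eworo background was 22.44 tags, the genome-wide value, in these pairs. The pileups ran from 43 to 55 tags in eworo and 55 to 74 tags in OreR for the 10 lower pairs, and 1 pair had 80 against 67 tags. No pair of this run lay in a gene, and the gene nearest to any of them was a ribosomal RNA gene 36003 bp away.

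Among 1116 windows of 100 kb with at least 8 pairs, the 5th and 95th percentiles of the medians were -0.05 and 0.05. The highest window lay on 3R around *Sp7*, a serine protease gene of the melanisation cascade, *pyd3*, which encodes an enzyme of pyrimidine breakdown, and *CG2641*. Of its 9 pairs 7 were above 0, with a median of 0.17, and the pair in *Sp7* had 69 tags in eworo and 53 in OreR (0.40). A pair 34 bp from *pyd3* had 59 and 53 tags (0.17). *pyd3* RNA had 11.5, 10.2 and 10.3 FPKM in the eworo libraries against 4.99, 5.12 and 3.63 FPKM in those of OreR (log2 difference 1.08, SE 0.15, limma, adjusted p = 0.0291), but this call was lost without any 1 of the 6 libraries (adjusted p from 0.0551 to 0.111). *Sp7* RNA was 2.92, 2.82 and 4.85 against 1.35, 1.80 and 2.05 FPKM, which did not pass (adjusted p = 0.247).

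At the genes of the trichome study the pairs lay near 0. *Ubx* had 22 pairs in its locus (3R, 16656623 to 16734461), with 9 above 0 and 13 below, a median of -0.04 and a range of -0.29 to 0.19. Within the span of the gene itself 8 of 21 pairs were above 0, with a median of -0.07. The only one past 1.2-fold, at 16695733, had 46 tags in eworo and 57 in OreR. *Ubx* RNA overlapped between the strains, with 3.96 and 8.67 FPKM and a value listed at 0 in eworo and 12.6, 5.77 and 8.04 FPKM in OreR (limma, adjusted p = 0.463). In the locus of *jigr1*, the host gene of miR-92a, 7 pairs ran from -0.18 to 0.06. The pair closest to *mir-92a*, 320 bp away, had 75 and 73 tags (0.06). None of the 7 passed 1.2-fold.

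The locus that holds *ovo* and its upstream region (X, 4956646 to 5070929) had 39 pairs, of which 29 were above 0, with a median of 0.07. In fold enrichment 21 of 39 were above 0 and the median was 0.02. The 6 pairs within *ovo* itself, where the pileup was 45 to 89 tags in eworo and 46 to 85 tags in OreR, ran from -0.06 to 0.18. The 1 pair past 1.2-fold lay in the upstream region, 6716 bp from *ovo* at 5041557, with 73 tags in eworo and 57 in OreR (0.33) and a fold enrichment ratio of 0.19. *ovo* RNA had 5.81, 26.3 and 17.1 FPKM in the eworo libraries against 23.5, 9.62 and 26.1 FPKM in those of OreR (limma, adjusted p = 0.772).

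The 3 pairs in *sha* differed by at most 3 tags, with 55, 69 and 58 tags in eworo and 54, 69 and 55 tags in OreR. The BTB zinc finger gene *abrupt* (*ab*) had 12 pairs from -0.16 to 0.17, the LIM homeobox gene *Arrowhead* (*Awh*) 4 from -0.15 to 0.05 and *CG14395* 4 from 0.02 to 0.06. The Sox gene *Dichaete* (*D*) had 85 tags in eworo and 89 in OreR at its only pair (-0.04), and the pigmentation gene *ebony* (*e*), mutant in eworo, had 54 and 50 tags (0.13). No pair of these 6 genes passed 1.2-fold. *SoxN*, *tal-3A*, *wo* and *ro* held no pair.

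**Figure D4:**
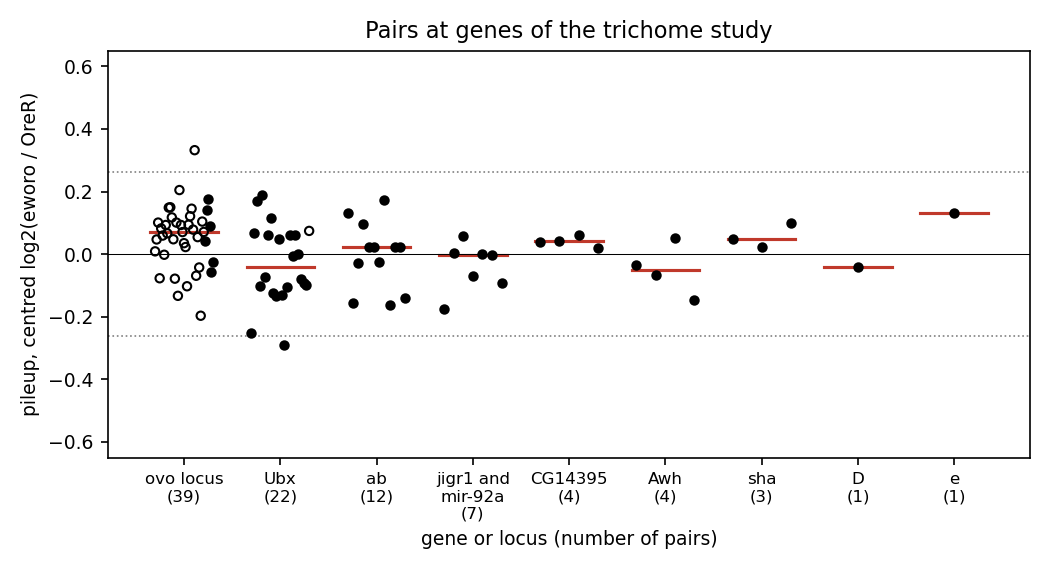
Centred log2(eworo pileup / OreR pileup) of each pair at genes of the trichome study, ordered by position within each gene. Filled points lie within the gene, open points elsewhere in its locus, red bars are medians and dotted lines mark 1.2-fold. Only 1 pair of the *ovo* locus (0.33) and 1 of *Ubx* (-0.29) lie beyond the dotted lines.

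Gene lists for the tissue were described by the pairs within the genes' own spans, beside 1.33% of all pairs past 1.2-fold higher and 1.84% lower. In the upstream trichome network 0 of 123 pairs were higher and 2 lower, and in the Svb targets 3 of 432 were higher and 9 lower (0.694% and 2.08%). Among Svb targets, *Cda5*, a chitin deacetylase gene, had 13 pairs with a median of -0.14, 11 of them below 0, but its fold enrichment median was 0.07. The zona pellucida gene *miniature* (*m*) had 4 pairs, all above 0 (median 0.12), and *CG12017* had 3, all below 0 (median -0.12). The Svb-independent larval trichome genes had 2 higher and 2 lower of 213 pairs.

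Leg patterning factors had 4 higher and 6 lower of 289 pairs. The proximal leg gene *hth* had 2 of its 52 pairs higher, with a median of 0.05, and *bab2* had 13 pairs with a median of -0.05. Hox genes had 2 higher and 3 lower of 108, with *pb* at a median of 0.11 and *lab* at -0.10 over 5 pairs each. Signalling ligands and receptors had 2 higher and 1 lower of 249, and the receptor gene *N* had 18 pairs with a median of 0.05. Ecdysone response genes had 2 of 242 in each direction and actin and trichome builders 5 of 236 in each. In the latter *fry*, which shapes the extensions of epidermal cells, had all 5 pairs below 0 (median -0.10) and *sqh*, the myosin light chain gene, had a median of 0.09 over 3. The medians of all these lists lay within 0.03 of 0.

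For chitin and cuticle genes 0 of 57 pairs were shifted in either direction, and for leg epidermis markers 0 higher and 1 lower of 68. Among markers of other cells in the leg, muscle markers had 0 higher and 3 lower of 88 pairs (3.41% lower), neuron and sensory organ markers 0 of 37, trachea markers 1 lower of 13 (7.69%), and haemocyte and fat body markers 0 of 16. Counted over whole loci, chitin genes and neuron markers each had 7 higher pairs, all from the locus that *y*, *ac*, *sc* and *ase* share.

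RNA was compared with limma on log2(FPKM + 1) over 4848 entries above a mean of 1 FPKM. It called 85 (1.75%) higher in eworo and 42 (0.866%) lower at an adjusted p under 0.05. The labels do not say that the 3 libraries of a strain come from separate cultures, and p-values then measure only the spread between these libraries. The loci with a pair past 1.5-fold in both measures held 3 genes at higher and 10 at lower pairs. Of these 4 could be tested, all at lower pairs, and 0 were called by limma. Over all entries 774 had an unadjusted p under 0.05. Among loci with a pair past 1.2-fold higher in both measures, 91 genes were tested, 2 were called higher and 1 lower (3.30% called). The 1 lower was *AGO3* and 1 of the 2 higher was *CG42663*, each listed at 0 in all 3 libraries of a strain. Among loci with a lower pair 164 were tested, 1 was called higher and 5 lower (3.66%). Over all 3269 tested genes of loci with a pair, 42 were called higher and 23 lower (1.99%). The median log2 RNA difference was -0.17 for the first group, -0.21 for the second and -0.03 for all, so it was of the same sign at higher and at lower pairs.

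Counted within the genes' own spans, the called genes with a pair past 1.2-fold in both measures were *CG42663*, *Dro* and *Psf2*, which is 1 of 58 tested genes with higher pairs (1.72%) and 2 of 106 with lower pairs (1.89%), close to the 1.60% called over all 2804 tested genes with a pair. *CG42663* had 21.6, 29.5 and 24.6 FPKM in eworo and was listed at 0 in all 3 OreR libraries (limma, adjusted p = 0.000164), and this call held without any 1 library. Of its 13 pairs 1 passed, with 65 tags in eworo and 52 in OreR (0.34), and the median was 0.02. *Dro*, which encodes the antimicrobial peptide drosocin, had 15.0, 10.1 and 23.2 FPKM in the eworo libraries against 63.8, 93.7 and 94.2 FPKM in those of OreR (log2 difference -2.36, SE 0.33, adjusted p = 0.0292). Its only pair, 201 bp from the end of the gene, had 56 and 70 tags (-0.30). *Psf2*, which encodes a subunit of the GINS complex of DNA replication, had 3.37, 1.90 and 2.62 FPKM against 8.80, 8.12 and 6.92 FPKM (log2 difference -1.31, SE 0.19, adjusted p = 0.0321), with 56 and 78 tags at its only pair (-0.46). In all 3 genes the RNA of the strains did not overlap. The call of *Psf2* was kept only without eworo replicate 2 (adjusted p = 0.0441) and lost without each other library (0.0598 to 0.134), and that of *Dro* was kept only without eworo replicate 2 (0.0441) or 3 (0.0274) and lost otherwise (0.068 to 0.123).

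At the shifted pairs outside loci, *AGO3* and *lncRNA:CR32368* had a tested difference in RNA. *AGO3* was listed at 0 in all 3 eworo libraries and had 3.65, 2.43 and 2.76 FPKM in OreR (limma, adjusted p = 0.00977), and the pair 324 bp away was higher in eworo. The call was lost without eworo replicate 3 (adjusted p = 0.0502) or OreR replicate 3 (0.0578). *lncRNA:CR32368*, 5 bp from a pair higher in eworo, had 9.24, 6.34 and 8.68 FPKM in the eworo libraries against 2.83, 2.02 and 1.66 FPKM in those of OreR (log2 difference 1.53, SE 0.21, adjusted p = 0.0289), a call kept only without eworo replicate 2 (0.0354) and lost without each other library (0.0519 to 0.118). RNA and peak height were both higher in eworo at *lncRNA:CR32368*. No direction is read for *AGO3*, whose difference rests on values of exactly 0. The same holds for *CG42663* and *CG10444*, listed at 0 in all 3 OreR libraries.

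**Figure D5:**
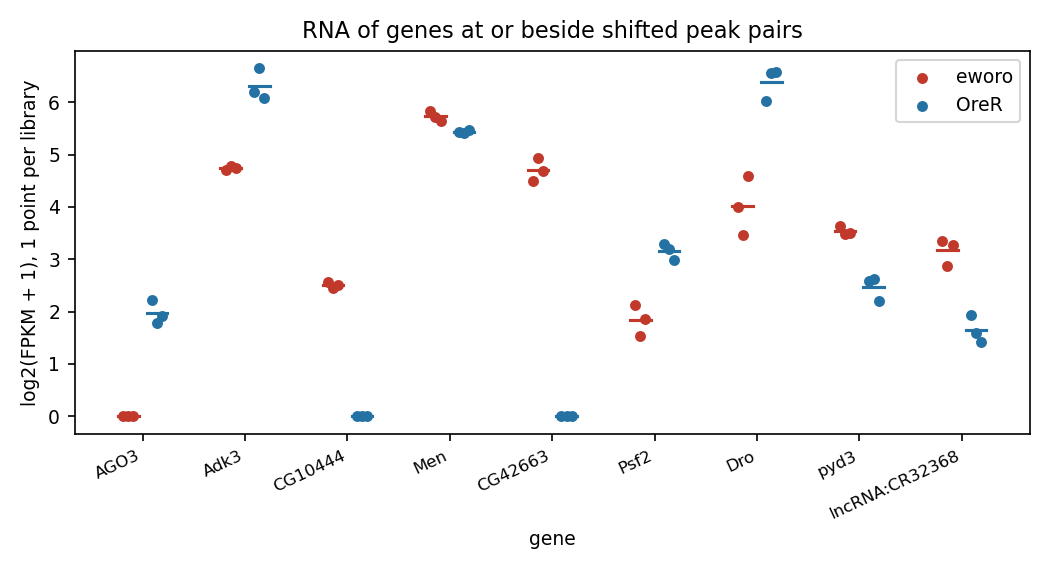
RNA level as log2(FPKM + 1) of 9 genes at or beside shifted pairs or regions of shifted background (x axis), with 1 point per library (3 in eworo, red, and 3 in OreR, blue) and bars at the means. *AGO3* is listed at 0 in eworo, *CG10444* and *CG42663* are listed at 0 in OreR, and the points of the strains do not overlap for any of the 9 genes.

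Read the other way, few pairs at genes called in RNA were shifted. The 27 genes higher in eworo that held pairs had 71 pairs with a median of 0.02, of which 2 (2.82%) passed 1.2-fold higher and 1 (1.41%) lower, and the gene median was above 0 in 16 and below 0 in 10. The 17 genes lower in eworo had 42 pairs with a median of -0.01, with 0 higher and 2 (4.76%) lower, and the gene median was above 0 in 6 and below 0 in 11. Over all 7842 genes with a pair 46.3% of the medians were above 0, and over all pairs 1.33% were higher and 1.84% lower. No test of these shares was made. The higher pairs were in *CG42663* and *CG17549*, which had 234.5, 166.4 and 216.5 FPKM in the eworo libraries against 41.5, 40.4 and 35.1 FPKM in those of OreR (log2 difference 2.37, SE 0.14, limma, adjusted p = 0.00142), a call that held without any 1 library. The pairs past 1.2-fold lower at genes with lower RNA were those of *Dro* and *Psf2*, and the lower pair at a gene with higher RNA was in *pippin* (-0.31), whose RNA call (limma, adjusted p = 0.0187) was kept only without eworo replicate 2 (0.0362, otherwise 0.0588 to 0.0914). In the gene lists limma called *CG7173* among the Svb targets, *Ddc* among the chitin and cuticle genes and *Appl* among the neuron markers. Each was lower in eworo as listed, and no other member was called. The call of *CG7173* held without any 1 library, that of *Ddc* only without OreR replicate 3 (adjusted p = 0.0233, otherwise 0.0584 to 0.141) and that of *Appl* only without OreR replicate 2 (0.0013, otherwise 0.0763 to 0.167). These are 1 of 70 tested Svb targets, 1 of 10 chitin and cuticle genes and 1 of 10 neuron markers, beside 0.866% called lower over all entries. No direction is read for *Appl*, which is listed at 0 in all 3 eworo libraries. It had 5 pairs from -0.15 to 0.26, and *CG7173* and *Ddc* held no pair.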

How the data were processed

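ATAC-Seq and RNA-Seq were made on T2 legs of eworo and OreR. The authors aligned ATAC-Seq reads with Bowtie2, removed duplicates, re-centred reads and called peaks with MACS2 (2.1.1.20160309) on the pooled reads of each strain, with a q cutoff of 0.01. In the deposited lists the signal is the pileup at the summit, not scaled between strains, the fold enrichment is its ratio to the local background, and each peak has a q-value as −log10. For RNA the authors deposited FPKM per library from Cufflinks (2.2.1) after TopHat2 (2.1.1). Their fold changes and p-values in the Cuffdiff table were not used; only its gene loci were.

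Summits were paired and centred in Python 3.11.15 (numpy 2.4.6, pandas 2.3.3, scipy 1.17.1, statsmodels 0.14.6, figures with matplotlib 3.10.9), on chromosomes with at least 20 pairs. Local background was computed as (pileup + 1) divided by fold enrichment, minus 1. Gene spans and names are from RefSeq. RNA was compared with limma 3.58.1 (R 4.3.3, lmFit and eBayes with a trend) on log2(FPKM + 1), with strain as the only term, over 4848 of 11903 entries named alike in 6 libraries, those above a mean of 1 FPKM, after scaling by median ratios; p-values were adjusted by Benjamini-Hochberg over these entries. The scripts were tested on simulated data.

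Genes were named where a pair in their locus passed 1.5-fold in both measures, where their locus held the most shifted pairs and where the study or a strain marker names them. For other lists they came from the up to 4 members with at least 3 pairs whose median was farthest from 0. Not all of these are given. A gene among the loci with high medians is not reported here. Pairs outside loci and the regions of shifted background, chromosome ends and windows were chosen after their values were seen. The members and lists were chosen with earlier results of these data known. Alternatives covered summit distance, pairing, centring, q, fold limit, ceiling, locus, pseudocount, filter, replicate block and leaving out each library.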

Additional observations from a re-analysis of the deposited data

How the results depend on the processing

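With a summit distance of 50 or 200 bp, greedy pairing (its counts chosen after seeing the data), centring on all pairs or on a lowess curve, and fold enrichment alone, the counts of pairs past 1.5-fold stayed within 1.5 times those reported. Requiring a -log10 q of at least 5 in both lists left 20594 pairs, of which 1 was higher, 1 lower and 2 shifted in both measures, but this filter removes shifted pairs by construction. At 2-fold the counts were 0, 0 and 0, and at 1.2-fold 436, 604 and 727. Random filling of positions gave 134 higher and 104 lower. At 1.2-fold 573 loci held a shifted pair, against 6 at 1.5-fold, and 9 RNA calls lay at loci with a pair past 1.2-fold in both measures, against 0 at 1.5-fold. Low peaks and the ceiling of 100 tags limit what a ratio can show.

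Replicate numbers did not pair the RNA libraries (correlations of same-numbered deviations -0.04, -0.11 and 0.05). With the replicate block 27 entries were called, against 127, and 5 against 12 at loci with a pair past 1.2-fold in pileup. Of the calls named, those of *CG42663*, *CG17549* and *Ddc* were kept and those of *Psf2*, *Dro*, *Adk3*, *CG10444*, *AGO3*, *pyd3*, *lncRNA:CR32368*, *CG7173*, *Appl* and *pippin* were lost. With no filter on low values those of *Psf2*, *Dro*, *pyd3*, *lncRNA:CR32368*, *Ddc* and *Appl* were lost (adjusted p from 0.0694 to 0.128). Without any 1 library the calls ranged from 61 to 168, and those at loci with a pair past 1.5-fold stayed at 0. No direction was reversed. The 2-fold version of the comparison of chromatin with RNA could not be run, since no pair passed 2-fold.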
